A study of Mus musculus with 6 samples.

Results

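The genes described here are p53 and the genes that p53 switches on or that hold it in check, as read in mouse myoblasts with and without Hdac11. They are 32 gene symbols of a fixed list, matched by name in the deposited gene table. All 32 were among its 21778 rows, and all 32 passed the filter on low counts that left 14835 genes for testing. Of the 32, 30 are genes of arrest, apoptosis, feedback, metabolism or DNA repair. The other two, Gtse1 and Psrc1, also follow the cell cycle and are kept apart below.

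RNA was sequenced from 3 myoblast cultures of Hdac11 knockout (KO) mice and 3 of wild-type (WT) mice. The KO mice were Hdac11-/-, made on C57BL/6 by excising the floxed exon 3 with a Cre recombinase driven by the Sox2 promoter, so that the deletion is present in the whole animal and not only in muscle. The frame then ends early, in exon 4, and leaves 59 of 349 amino acids per the labels. The WT mice were C57BL/6 littermates. From each genotype, myoblasts were sorted from hindlimb muscle as cells positive for alpha7-integrin and CD34, grown in culture, plated at 26000 cells per cm2 on matrigel and kept for 24 h in differentiation medium with 2% horse serum before poly(A) RNA was sequenced. The labels used here state no age, no sex and no number of mice per culture. The libraries are called biological replicates in the series' design text.

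p53, the product of Trp53, is a transcription factor that is made all the time and destroyed almost as fast. Mdm2 tags it for degradation, and damage to DNA or other stress stops that, so that p53 builds up and switches on genes that stop the cell cycle, repair DNA or kill the cell. Mdm2 is itself one of its targets, which closes a feedback loop. Most of this control acts on the p53 protein, so mRNA counts show the targets' response and not the amount of active p53. Cdkn1a, which encodes the cell cycle inhibitor p21, is the best known p53 target, but in myoblasts it is also switched on during differentiation, when cells leave the cell cycle.

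Total counts were 16742457 to 22835394 per library, and correlations of log2 CPM (the read count divided by the size of its library, which was itself adjusted by the TMM method) were 0.949 to 0.973 within groups and 0.905 to 0.973 between them. The targeted gene, Hdac11, did not set all 3 KO libraries apart: its 76.4 CPM in the one labelled KO replicate 2 lay within the WT range of 63.0 to 79.5 CPM, with 33.5 and 30.2 CPM in the other two. Loss of exon 3 cannot be read from counts of the whole gene, and the numbers of p53 genes are therefore also given without that library. Of 8 myoblast markers 8 were present, with summed levels of 6108 to 8574 CPM in KO and at least 9691 CPM in WT. The single markers differed: 7 had a lower mean in KO and 1, Pax7, a higher one. Pax7 had a log2 fold change of 0.66 without overlap of the groups. Myod1 and Myf5 were at -0.05 and -0.02, and their groups overlapped. Summed levels were 1.52 to 4.01 CPM in KO and 1.92 to 3.12 CPM in WT for endothelial markers, and 1.92 to 3.09 CPM in KO and 2.17 to 3.53 CPM in WT for fibro-adipogenic markers. Immune markers summed to 7.00 to 9.13 CPM in KO and 5.99 to 16.8 CPM in WT. Schwann cell markers summed to 150 to 413 CPM in KO and 427 to 863 CPM in WT, nearly all of it Erbb3, and its part in the results was not tested. In RNA from whole cultures, fewer cells of a kind and less RNA per cell cannot be told apart.

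No p53 gene passed the threshold over all genes in edgeR or limma-voom. With edgeR's quasi-likelihood test, adjusted over all 14835 tested genes, 0 of the 32 were higher in KO and 0 lower, and the share of all tested genes called was 0% in each direction, with a smallest adjusted p of 0.138. With limma-voom the counts were also 0. Before adjustment, 12 of the 32 (37.5%) were higher in KO at a p under 0.05 in edgeR, against 9.88% of all tested genes, and 1 (3.12%) was lower, against 7.83% of all tested genes. Without Gtse1 and Psrc1 the numbers were 10 of 30 higher (33.3%) and 1 lower. DESeq2 called Gtse1 and Psrc1 higher, against 4.49% of all genes called higher and 2.4% called lower. The authors' deposited table called Gtse1, against 4.2% of all genes called higher and 2.13% called lower.

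Most of the 32 genes had a higher mean in KO, by small amounts. The log2 fold change of KO over WT was positive for 25 of 32 genes and for 49.2% of all tested genes. Without Gtse1 and Psrc1 it was positive for 23 of 30 genes. Its median was 0.23 over the 30 genes other than Gtse1 and Psrc1, and -0.009 over all tested genes. KO values lay above all WT values for 8 of the 32 (25%), against 13.2% of all tested genes, and below all WT values for 0, against 10.2%. The 8 were Trp53, Bax, Apaf1, Tnfrsf10b, Perp, Ei24, Gtse1 and Psrc1. Of the 30 genes other than Gtse1 and Psrc1, 6 (20%) were higher without overlap, against the same 13.2% of all tested genes. Without the library labelled KO replicate 2, the log2 fold change was positive for 22 of the 32 genes and for 47.9% of all tested genes. The median of the 30 genes was then 0.188, and that of all tested genes -0.026. Groups did not overlap in 8 of the 32 higher in KO, against 19.4% of all tested genes, and in 0 lower, against 17.3%. The number higher at an unadjusted p under 0.05 moved with single libraries. It was 6 (18.8%, against 9.52% of all genes) when the library labelled KO replicate 2 was left out, and 4 (12.5%, against 5.92%) when KO replicate 3 was. It was 6 without WT replicate 1 (18.8%, against 10.6%) and 6 without WT replicate 2 (18.8%, against 7.08%). It was 10 without KO replicate 1 (31.2%, against 8.88%) and 10 without WT replicate 3 (31.2%, against 9.8%). The members that stayed under 0.05 whichever of the 6 libraries was left out were Gtse1, Psrc1 and Apaf1. Gtse1 and Psrc1 are thus part of each count higher at an unadjusted p under 0.05 given above. The share of all tested genes that did so is not given here.

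**Figure D1:**
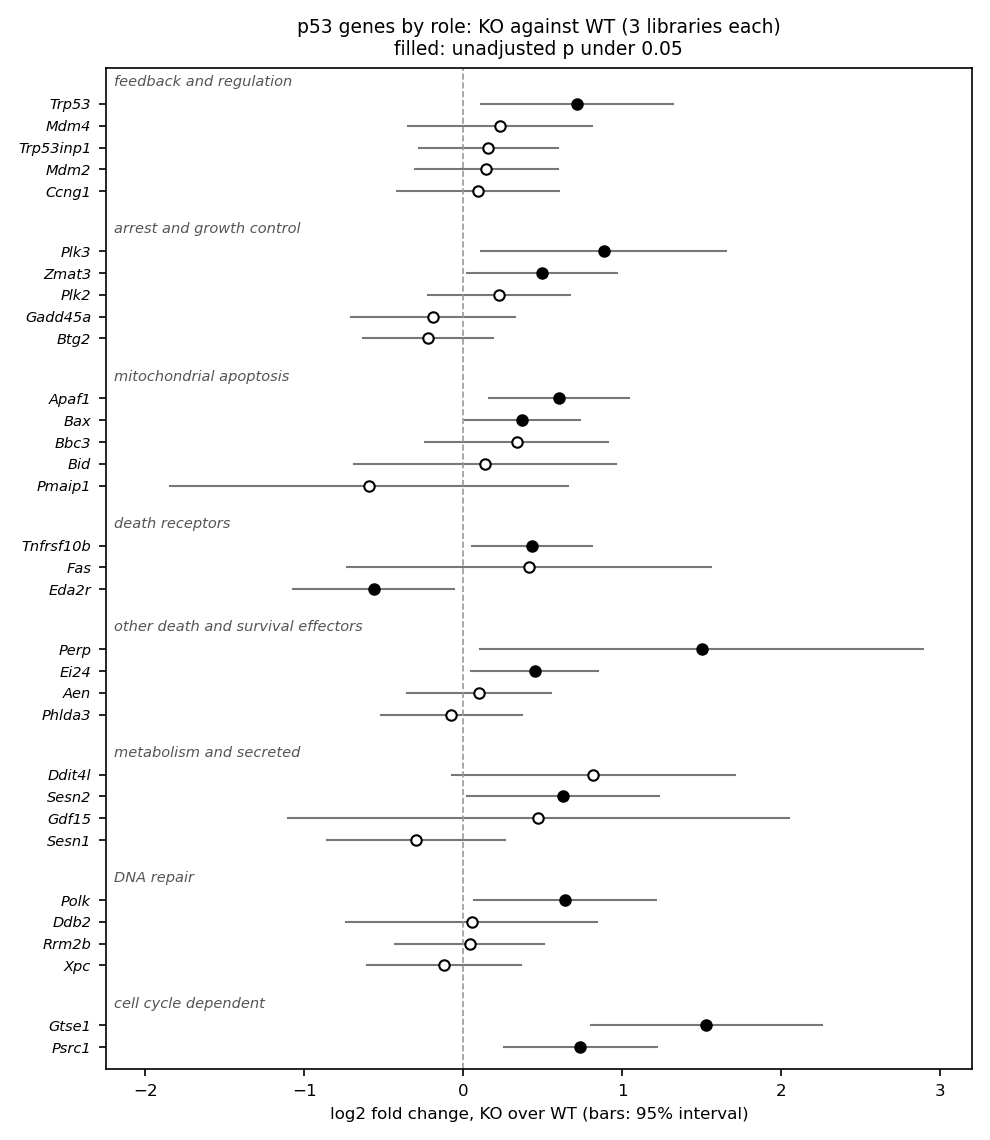
Log2 fold change of KO over WT for the 32 p53 genes, grouped by role, with 95% intervals from edgeR's error; filled points have an unadjusted p under 0.05. Of the 13 filled points, 12 lie right of 0 and Eda2r lies left of it, and the feedback genes Mdm2 and Ccng1 lie close to 0.

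Of the 5 regulators and feedback genes among the 32, Trp53 was the one whose groups did not overlap; its difference from the feedback genes was not tested. It had 157, 124 and 219.7 CPM in KO replicates 1, 2 and 3, against 122, 76.5 and 106 CPM in WT replicates 1, 2 and 3. Every KO value was above every WT value, though KO replicate 2 and WT replicate 1 lay close together. The log2 fold change was 0.72 (SE 0.26), with an edgeR adjusted p of 0.231 and a range of 0.49 to 0.90 as single libraries were left out.

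Mdm2, the ubiquitin ligase that degrades p53, overlapped between the groups. It was at 246, 317 and 363 CPM in KO, against 253, 317 and 266 CPM in WT, a log2 fold change of 0.15 with a 95% interval of -0.31 to 0.60. Ccng1, which encodes cyclin G1 and helps to activate Mdm2, was at 658, 641 and 963 CPM in KO, against 609, 760.4 and 753 CPM in WT. Its log2 fold change was 0.09 with a 95% interval of -0.42 to 0.60, and it was -0.105 without KO replicate 3. These intervals reach to 0.60 on the log2 scale in both genes, and edgeR's adjusted p was 0.720 for Mdm2 and 0.851 for Ccng1. Mdm4, the partner that blocks p53's activation domain, and Trp53inp1, a target that promotes the apoptotic arm, had log2 fold changes of 0.23 and 0.16, and their groups overlapped.

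**Figure D2:**
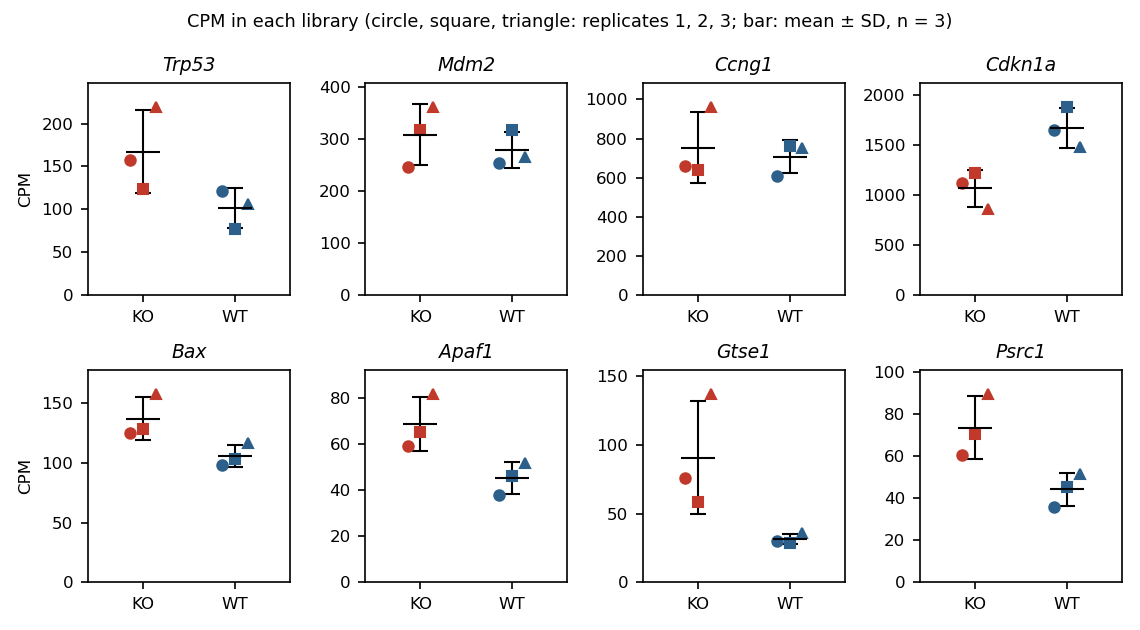
CPM of 8 genes in each library, KO left of WT, with the mean and SD of 3 libraries. Trp53, Bax, Apaf1, Gtse1 and Psrc1 have all KO points above all WT points, Mdm2 and Ccng1 overlap, and all KO points of Cdkn1a lie below the WT points.

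The genes of arrest and growth control had no common direction. Plk3, a stress-responsive polo-like kinase, was at 10.2, 16.6 and 20.4 CPM in KO, against 9.17, 5.88 and 10.5 CPM in WT. Zmat3, an RNA-binding protein that p53 uses to steer splicing, was at 127.9, 148 and 195 CPM in KO, against 103, 100.4 and 130.4 CPM in WT. In each, the lowest KO value was just below the highest WT value, and the log2 fold changes were 0.88 (SE 0.33) and 0.50 (SE 0.20), with edgeR adjusted p of 0.238 and 0.263. Plk2, another polo-like kinase, had a log2 fold change of 0.23. Btg2, an antiproliferative adaptor of mRNA decay, and Gadd45a, a stress sensor that acts in arrest and repair, were at -0.22 and -0.19. The groups of all 3 overlapped.

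In the mitochondrial death pathway, 4 of 5 genes had a higher mean in KO, where 49.2% of all tested genes did, and 0 passed edgeR's adjusted threshold. The groups of 2 did not overlap, Apaf1 and Bax, where 13.2% of all tested genes were higher without overlap. Apaf1, the scaffold of the apoptosome that activates caspase-9, was at 58.9, 65.0 and 81.6 CPM in KO, against 37.7, 46.2 and 51.5 CPM in WT. The groups did not overlap, the log2 fold change was 0.60 (SE 0.19) and the edgeR adjusted p was 0.204. The log2 fold change of Apaf1 stayed between 0.48 and 0.71 as single libraries were left out. Bax, which opens the outer mitochondrial membrane, was at 125, 128.1 and 158 CPM in KO, against 98.4, 103 and 116 CPM in WT. This was a 1.29-fold difference without overlap, a log2 fold change of 0.37 (SE 0.15) and an edgeR adjusted p of 0.271, and its unadjusted p stayed under 0.05 in 2 of the 6 fits that left out a library.

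The triggers upstream of Bax overlapped between the groups. Bbc3, the BH3-only protein PUMA, had a log2 fold change of 0.34, and Bid, which links death receptors to mitochondria, had 0.14. Pmaip1, the BH3-only protein NOXA, varied most among the WT libraries. It was at 71.9, 119 and 62.7 CPM in KO, against 41.2, 214 and 127 CPM in WT, so that WT libraries differed 5.2-fold among themselves. Its log2 fold change was -0.59 (SE 0.54), and without WT replicate 2 it was 0.0056.

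The death receptors went in different directions. Tnfrsf10b, the mouse receptor for the ligand TRAIL, was at 59.1, 57.2 and 64.1 CPM in KO, against 39.4, 41.6 and 52.9 CPM in WT, with no overlap. Its log2 fold change was 0.43 (SE 0.16), with an edgeR adjusted p of 0.240. Fas, at 3.22 to 6.62 CPM in KO and 2.22 to 5.76 CPM in WT, overlapped between the groups. Eda2r, the receptor for ectodysplasin A2, was the member with a lower mean in KO at an unadjusted p under 0.05. It was at 194, 152 and 124 CPM in KO, against 188, 267 and 240.4 CPM in WT, and KO replicate 1 lay above WT replicate 1. Its log2 fold change was -0.56 (SE 0.22), the edgeR adjusted p was 0.246, and it ranged from -0.74 to -0.40 as single libraries were left out.

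Of the other death and survival genes, Ei24, an endoplasmic reticulum protein of autophagy, was at 121, 111 and 155 CPM in KO, against 84.8, 101 and 97.9 CPM in WT. The groups did not overlap, and the log2 fold change was 0.45 (SE 0.17) with an edgeR adjusted p of 0.245. Perp, a membrane protein of cell junctions and of p53-driven apoptosis, was near the limit of detection, with 24, 44 and 16 counts in KO, against 4, 14 and 9 counts in WT. The fold difference was 2.83, with an SE of 0.60 on the log2 scale and an edgeR adjusted p of 0.257. Aen, an exonuclease of apoptosis, and Phlda3, which restrains Akt, had log2 fold changes of 0.10 and -0.08, and both overlapped.

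Among the metabolic and secreted targets, Sesn2, a sestrin that senses leucine and restrains mTORC1, was at 48.8, 76.0 and 76.0 CPM in KO, against 55.2, 31.5 and 43.2 CPM in WT. KO replicate 1 lay below WT replicate 1, and the log2 fold change was 0.63 (SE 0.26) with an edgeR adjusted p of 0.271. Ddit4l, another brake on mTORC1 that is abundant in muscle, had 0.82 (SE 0.38, edgeR adjusted p of 0.309), and Sesn1 had -0.30. Gdf15, a secreted stress hormone, differed 5.13-fold among the KO libraries and 3.73-fold among the WT libraries. It was at 10.6, 34.2 and 6.67 CPM in KO, against 21.1, 5.65 and 10.4 CPM in WT, and its log2 fold change was 0.47 with all libraries and -0.52 without the library labelled KO replicate 2.

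Of the 4 DNA repair genes, 1 had an unadjusted p under 0.05, a share near the 17.7% of all tested genes in either direction. Polk, the translesion polymerase kappa, was at 33.2, 47.7 and 56.0 CPM in KO, against 24.5, 26.8 and 36.6 CPM in WT. Its lowest KO value lay below its highest WT value, and the log2 fold change was 0.64 (SE 0.24) with an edgeR adjusted p of 0.245. Ddb2 and Xpc, which find ultraviolet lesions for nucleotide excision repair, had log2 fold changes of 0.05 and -0.12. Rrm2b, the ribonucleotide reductase subunit that p53 induces outside S phase, had 0.04 with a 95% interval of -0.43 to 0.51.

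Gtse1 and Psrc1 had the lowest p-values of the 32 genes. Gtse1 encodes a microtubule-binding protein of G2 and M phase that can carry p53 out of the nucleus, and Psrc1 encodes a spindle protein that was first described as a p53-regulated gene. Gtse1 was at 76.2, 58.9 and 137 CPM in KO, against 29.9, 28.8 and 35.7 CPM in WT. The lowest KO value lay well above the highest WT value, a 2.89-fold difference of the means with a log2 fold change of 1.53 (SE 0.31). The edgeR adjusted p of Gtse1 was 0.138, that of DESeq2 0.000754, and in the authors' deposited table it was 0.000794.

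Psrc1 was at 60.4, 70.6 and 89.5 CPM in KO, against 35.9, 45.1 and 51.4 CPM in WT. The groups did not overlap, and the log2 fold change was 0.74 (SE 0.21). The adjusted p of Psrc1 was 0.182 in edgeR, 0.0499 in DESeq2 and 0.0544 in the authors' deposited table, so that its call depended on the tool.

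Cell cycle genes also had higher means in KO. All 20 genes of a G2/M list and all 20 of a G1/S list had a higher mean in KO, with median log2 fold changes of 1.41 and 1.28, and 20 and 18 of them had an unadjusted p under 0.05 in edgeR, against 9.88% of all tested genes higher by that measure. With edgeR's adjusted p 0 of either list passed, and DESeq2 called 20 and 14 higher. Summed G2/M levels were 2096, 1837 and 2675 CPM in KO, against 1020, 581 and 893 CPM in WT. Foxm1, which drives the G2/M genes, and Ccnb2, a mitotic cyclin, had log2 fold changes of 1.53 and 1.37. Of 13 muscle genes tested, 13 had a lower mean in KO, with a median of -1.44, and 8 had an unadjusted p under 0.05 in edgeR, against 7.83% of all tested genes lower by that measure. With edgeR's adjusted p 0 of them passed, and DESeq2 called 7 lower. On the mean of this list, KO replicate 1 lay above WT replicate 1. The part of the cell cycle or of the state of differentiation in the values of the p53 genes was not tested.

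**Figure D3:**
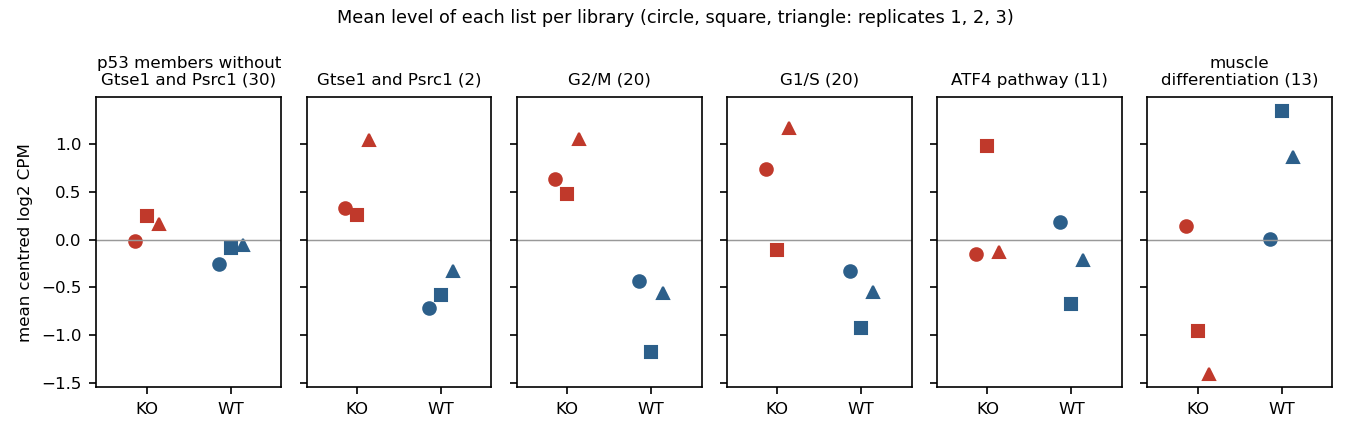
Mean over each list of log2 CPM centred on the 6 libraries, by library, KO left of WT. Gtse1 and Psrc1 separate the groups as the G2/M and G1/S lists do, the other 30 p53 genes do so by much less, and muscle genes are lower in KO replicates 2 and 3 than in any WT library, with KO replicate 1 above WT replicate 1.

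The letters of the promoters were compared for Gtse1 and Ccng1, targets with a large and a small log2 fold change, and for the other genes with a window. Windows ran from 250 bases before to 50 bases after each RefSeq start on GRCm38.p6, for the 24 of the 32 genes with a window in that table. The search was for the 20-base p53 response element, a palindrome that reads alike on both strands, with no spacer between its repeated units. Of 33 windows of these genes, 2 held the element with at most 1 mismatch, in Ccng1 and Gtse1, against 0.0883% of all 32851 windows. With up to 3 mismatches 11 windows of 10 genes held it (33.3%, against 6.29%), those of Aen, Bax, Bbc3, Ccng1, Gadd45a, Gtse1, Mdm4, Polk, Sesn1 and Trp53. The windows of Aen overlap and share the same match. Each repeated unit of the element has a fixed C and a fixed G. The matches of Bax, Gadd45a, Mdm4 and Polk lacked at least 1 of these letters. Elements that lie outside these windows, such as those in introns, were not searched. The best match of 4 genes is printed here with 5 bases on each side, 5′ to 3′ on the gene's strand, and capitals mark the C and G letters that define each repeated unit.
Ccng1, 1 mismatch, chr11:40755457-40755486, minus strand: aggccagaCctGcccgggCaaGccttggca
Gtse1, 1 mismatch, chr15:85859940-85859969, plus strand: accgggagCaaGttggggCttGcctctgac
Aen, 3 mismatches, chr7:78895932-78895961, plus strand: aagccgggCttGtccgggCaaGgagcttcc
Bbc3, 3 mismatches, chr7:16309481-16309510, plus strand: cccgactgCaaGccccgaCttGtccccagc

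The log2 fold changes beside these letters were 1.53 in Gtse1, 0.09 in Ccng1, 0.10 in Aen and 0.34 in Bbc3. Sesn1 and Trp53 also had matches with 3 mismatches and every fixed C and G, which are not printed. Their log2 fold changes were -0.30 and 0.72. Genes of G2/M often carry a cell cycle homology region, with the letters TTTGAA or TTCGAA, near their start. On both strands 19.2% of all windows held either, and 1.56% held TTCGAA. Of the 24 genes with a window Psrc1 was the one with TTCGAA, at position 5 counted from its upstream start, and Aen, Bax, Fas and Gdf15 held TTTGAA. No match was in the windows of Gtse1, which says only that these letters are not there. The Psrc1 promoter is shown with that match in capitals, and the Ccng1 promoter with its p53 element in capitals, one as a gene that also follows the cell cycle and the other as a feedback target.
Psrc1, chr3:108383554-108383823, plus strand: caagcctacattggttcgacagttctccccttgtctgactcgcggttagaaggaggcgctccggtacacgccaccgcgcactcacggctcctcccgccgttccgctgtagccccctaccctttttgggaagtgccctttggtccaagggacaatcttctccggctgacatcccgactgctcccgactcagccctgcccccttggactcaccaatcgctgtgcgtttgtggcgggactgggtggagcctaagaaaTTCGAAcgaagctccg
Ccng1, chr11:40755287-40755536, minus strand: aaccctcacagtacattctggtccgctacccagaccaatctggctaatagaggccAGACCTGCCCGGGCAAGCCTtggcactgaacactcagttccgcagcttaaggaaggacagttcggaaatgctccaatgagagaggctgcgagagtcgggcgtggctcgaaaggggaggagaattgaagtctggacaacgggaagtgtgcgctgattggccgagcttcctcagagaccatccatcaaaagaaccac

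Of other p53 targets, 24 of 25 names were in the table and 23 were tested. With edgeR's adjusted p 0 passed; before adjustment 7 were higher (30.4%, against 9.88% of all tested genes) and 2 lower (8.7%, against 7.83%) in KO at a p under 0.05. DESeq2 called 4 higher and 1 lower, against 4.49% and 2.4% of all genes. The one called lower by DESeq2 was Cdkn1a, at 1122, 1221 and 863 CPM in KO, against 1645, 1883 and 1480 CPM (1479.7) in WT. All KO values lay below all WT values, with a log2 fold change of -0.64 (SE 0.21). The adjusted p of Cdkn1a was 0.210 in edgeR, 0.0362 in DESeq2 and 0.0539 in the authors' deposited table. The sign of Cdkn1a was opposite to that of 25 of the 32 genes.

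The 4 called higher by DESeq2 were Ckap2, Tap1, Pidd1 and Abhd4. Ckap2, a spindle protein that also follows the cell cycle, was at 111, 96.9 and 162 CPM in KO, against 52.0, 41.9 and 48.1 CPM in WT, a log2 fold change of 1.38. Pidd1, the death domain protein that activates caspase-2, was at 40.4, 34.5 and 66.0 CPM in KO, against 17.2, 21.0 and 25.2 CPM in WT, a log2 fold change of 1.15. Tap1, a peptide transporter of antigen presentation, and Abhd4, a lipase, had log2 fold changes of 1.02 and 0.54. In none of these did the groups overlap, and the highest DESeq2 adjusted p of the 4 was 0.0288. The median of the 23 was 0.30.

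Among other regulators of p53, 24 of 25 names were in the table, since Cop1 is listed there under its older symbol Rfwd2, and 23 were tested. Before adjustment 3 were higher (13%) and 2 lower (8.7%) at a p under 0.05 in edgeR, shares near the 9.88% and 7.83% of all tested genes. With edgeR's adjusted p 0 passed, and the median log2 fold change was -0.007. The kinases Chek2 and Chek1, which signal DNA damage and stalled replication, had log2 fold changes of 1.23 and 1.11. The median of the G1/S list was 1.28, and the part of the cell cycle in the values of these kinases was not tested. Wrap53, a telomerase and Cajal body protein encoded next to Trp53, had a log2 fold change of 0.71. Chek2 was at 14.6, 14.4 and 22.0 CPM in KO, against 7.49, 5.12 and 9.05 CPM in WT, and its DESeq2 adjusted p was 0.00673. Trp63, the p53 relative of epithelia, was at 2.39, 0.224 and 1.41 CPM in KO, against 2.93, 13.6 and 4.50 CPM in WT, and its DESeq2 adjusted p was 0.0414. Cdkn2a, whose ARF product blocks Mdm2, was at 45.0 to 67.9 CPM in KO and 42.1 to 59.4 CPM in WT and overlapped. Counts per gene do not separate ARF from the p16 product of that locus.

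Across libraries, the 32 genes did not follow the genotype evenly. KO replicate 3 had the highest value of 18 of the 32 (56.2%), Gtse1 and Psrc1 among them, against 25.3% of all tested genes. The library labelled KO replicate 2 had that of 7 (21.9%, against 15.3%), among them Mdm4, Bbc3, Fas, Ddb2 and Gdf15. KO replicate 1 had the highest value of 0 of the 32 (0%), against 6.7% of all tested genes. The lowest values were mostly in WT replicate 1 and WT replicate 2, with 12 genes each (37.5%), against 12.1% and 26.3% of all tested genes. For the 30 genes other than Gtse1 and Psrc1, log2 CPM minus the mean of the 6 libraries was averaged, and KO replicates 1, 2 and 3 were at -0.015, 0.246 and 0.160, against -0.253, -0.086 and -0.053 in WT. The KO and WT means therefore did not overlap, but KO replicate 1 and WT replicate 3 lay close together.

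**Figure D4:**
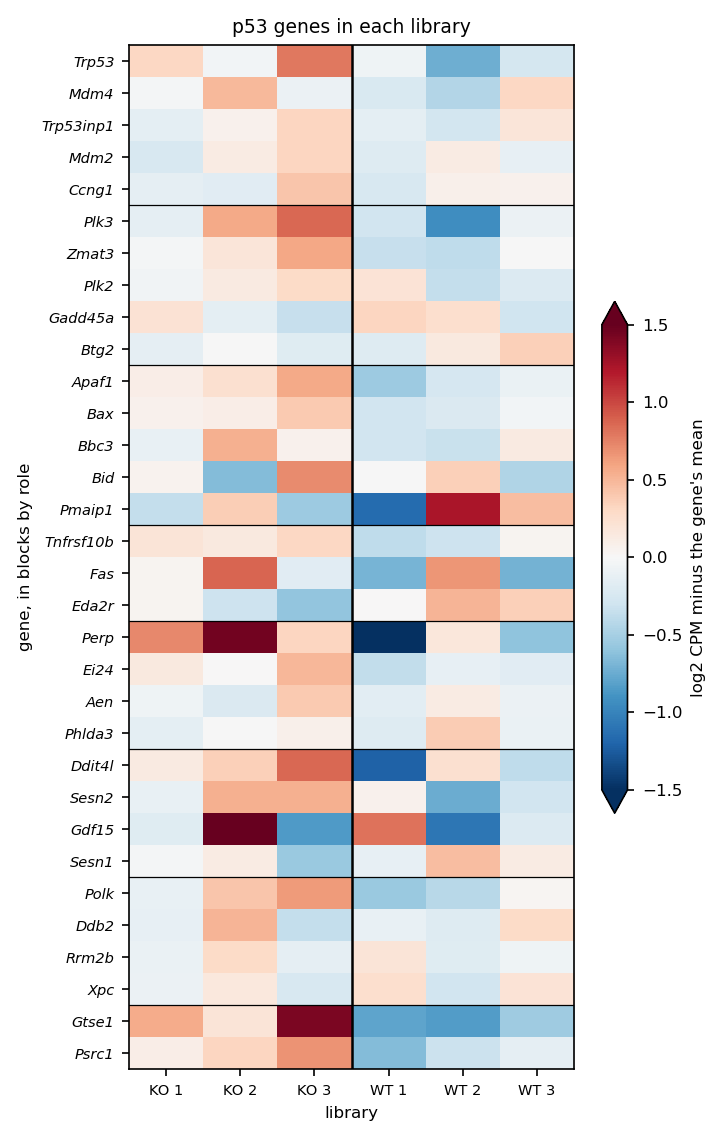
Log2 CPM of each of the 32 p53 genes minus its mean over the 6 libraries, in blocks by role, KO left of WT; the colour scale ends at 1.5 in each direction. KO replicate 3 has the highest value of 18 genes, Gdf15 is high in KO replicate 2 and WT replicate 1, and Pmaip1 is high in WT replicate 2.

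Some of these genes overlap another gene on the genome, in RefSeq spans of GRCm38.p6. Plk3 overlaps Tctex1d4, Apaf1 overlaps Ikbip, Ddb2 overlaps Acp2, Ei24 overlaps Gm26787, Mdm4 overlaps Gm29257, Bid overlaps Gm17812 and Gadd45a overlaps E230016M11Rik. The kit keeps the strand, but the labels do not state the strand setting of the counting, so that reads of such pairs may not be fully told apart.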

How the data were processed

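Poly(A) RNA of 3 KO and 3 WT myoblast cultures was sequenced from stranded libraries, per the labels' protocols. Per the submitters' processing notes, TopHat2 2.0.8 with Bowtie2, featureCounts, Trimmomatic, FastQC and DESeq2 were used with GRCm38, and no settings are recorded. The authors deposited raw counts per gene symbol. They also deposited normalized counts, a signal in which each count is divided by a size factor of its library, and, per the file headers, log2 fold changes of KO over WT, a test score, p-values and adjusted p-values.

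Raw counts of 21778 genes were used here. filterByExpr by genotype kept 14835 genes. The test was edgeR's quasi-likelihood F test (version 4.0.16, TMM library sizes, no covariate, Benjamini-Hochberg over all tested genes, threshold 0.05) in R 4.3.3. Standard errors and 95% intervals follow from the F statistic. The alternative tools, DESeq2 1.42.0 and voom of limma 3.58.1, took the same filtered genes, and an adjusted p that DESeq2 gave as NA stayed NA. All 3 tools were tested on simulated counts. CPM are not divided by gene length, so levels are compared between libraries only. The p-values set the difference between the genotypes against the spread among these cultures, and the number of mice per culture is not stated.

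The members, the lists and the tests were chosen with earlier results of these data known. All members are accounted for, with values in every library for Trp53, Mdm2, Ccng1, Gtse1, Psrc1, Cdkn1a, members with an unadjusted p under 0.05 and members called by DESeq2 or the authors; Pmaip1, Gdf15 and Perp's raw counts were added after their values were seen. Of other lists, up to 4 genes with the smallest p were named. Cdkn2a, Rfwd2, the genes of the stress lists, the marker genes Erbb3, Myod1 and Myf5, Trp53i11, Cyfip2 and the overlap partners were named outside that rule. Promoters are from RefSeq on GRCm38.p6, the build the notes name.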

Additional observations from a re-analysis of the deposited data

How the results depend on the processing

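Alternatives covered scaling, the low-count filter, the tool, a replicate block, each library left out and the authors' deposited values. Of the single-gene values under an alternative, 411 kept their sign and call, 4 gained a call (Gtse1 in DESeq2 and the authors' deposited table, Psrc1 and Cdkn1a in DESeq2) and 13, none of them called, reversed sign. The cause was not tested. The number of p53 genes called higher over all genes was 2 with DESeq2 and 1 in the authors' deposited table, against 0 in edgeR, and at an unadjusted p under 0.05 it was 4 to 10 with a library left out, against 12. The number lower at an unadjusted p under 0.05 was 0 with scaling by library totals, 0 with the replicate block and 0 to 2 with a library left out, against 1. Of all tested genes, 6.16% were lower by that measure with the replicate block and 2.84% to 9.84% with a library left out. The share with scaling by library totals is not given here. Groups not overlapping numbered 8 to 14 higher and 0 to 3 lower with a library left out, where fewer libraries make overlap rarer in every gene: 15.2% to 21.6% of all genes were then higher and 11.7% to 19.3% lower without overlap. Other targets lower in KO at an unadjusted p under 0.05 were 1 with limma-voom and 1 with the replicate block, against 2. They were 0 to 3 with a library left out. Other regulators lower were 1 with library totals, 1 with the block and 0 to 2 with a library left out, against 2. Beside these stand the same 6.16% of all tested genes with the block and 2.84% to 9.84% with a library left out. The shares with limma-voom and library totals are not given here. Scaling by library totals shifted the median of all genes from -0.009 to 0.14 and that of the 30 p53 genes to 0.373, and gave 0.092 for Phlda3 and 0.019 for Xpc. With a library left out, log2 fold changes ranged from -0.105 to 0.20 for Ccng1, -0.995 to 0.0056 for Pmaip1, -0.173 to 0.12 for Phlda3, -0.084 to 0.224 for Aen, -0.243 to 0.24 for Ddb2, -0.108 to 0.169 for Rrm2b, -0.517 to 1.12 for Gdf15 and -0.242 to 0.418 for Bid. Same-numbered libraries had correlations of -0.248, -0.069 and 0.048 of their deviations from the group means, so the numbers were not taken as pairs. With the replicate block 0 p53 genes were called. At an unadjusted p under 0.05, 12 of the 32 were then higher, against 9.38% of all tested genes. Genes at a few counts, such as Perp, are limited by depth.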

Other observations

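Several p53 targets also answer to ATF4, the factor of amino acid and endoplasmic reticulum stress, and the library labelled KO replicate 2 was highest in the ATF4 list. On the mean of centred log2 CPM over 11 ATF4 pathway genes, which include Sesn2, KO replicates 1, 2 and 3 were at -0.149, 0.977 and -0.131, against 0.189, -0.675 and -0.210 in WT replicates 1, 2 and 3. Trib3 was at 7.77, 48.5 and 9.09 CPM in KO, against 22.9, 2.68 and 9.90 CPM in WT, and Chac1 at 10.3, 40.4 and 13.9 CPM in KO, against 24.8, 4.72 and 12.6 CPM in WT. Gdf15 had the same highest and lowest libraries as Trib3 and Chac1. So did Atf4, Asns and Slc7a11 of the list, while Ddit3, Ddit4, Vldlr, Psat1, Phgdh and Sesn2 did not. Ddit4, for example, was highest in WT replicate 3 at 53.8 CPM and lowest in WT replicate 1 at 18.0 CPM. The groups of Trib3, Chac1 and Gdf15 overlap. Of the 11 ATF4 pathway genes 3 (27.3%) were higher at an unadjusted p under 0.05 in edgeR, against 9.88% of all tested genes. They were Slc7a11, Phgdh and Sesn2, and Sesn2 is also one of the 32 p53 genes. The part of ATF4 in the values of the p53 genes was not tested.

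Among 11 immediate early and stress genes, edgeR gave 0 with a p under 0.05 before adjustment, and Egr1 ranged from 22.3 to 106 CPM in KO and from 15.9 to 197 CPM in WT. Trp53i11, listed among other p53 targets, was at 62.3, 28.0 and 260.4 CPM in KO, against 18.0, 5.94 and 30.4 CPM in WT, with overlapping groups. Its log2 fold change was 2.69 (SE 0.89), with an edgeR p of 0.0177 before adjustment and 0.212 after it. Cyfip2, of the same list, was at 6.47, 3.13 and 2.54 CPM in KO, against 2.33, 50.4 and 18.0 CPM in WT, so that its lowest value was also in WT. Its log2 fold change was -2.54 (SE 0.94), with an edgeR p of 0.0295 before adjustment and 0.238 after it.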
